A study of Mus musculus with 2 samples.

Results

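The genes described here are the vascular growth factor Vegfa and 9 genes that mark endothelial cells or carry the signals of Vegfa and the angiopoietins in them, namely Kdr, Flt1, Tek, Tie1, Cdh5, Pecam1, Emcn, Vwf and Plvap. They were chosen by name, and every probe of the array that is not a control and carries one of these names was taken, which gave 20 probes of the 41174 on the array. Expression was measured on 2 one-colour arrays of kidney collecting duct cells that had been isolated with DBA, a lectin used to pick out this epithelium, and magnetic beads. The Gata2 conditional knockout (CKO) array held cells of mice labelled Gata2flox/-::Pax8-rtTA::Tet-Cre, in which 1 Gata2 allele was floxed and the other null, the Pax8 promoter drove the doxycycline-dependent activator in renal tubules, and doxycycline was given for 4 weeks. The null allele was carried by all cells of these mice, endothelial cells included. The other array held cells of wild-type (WT) mice, whose label names no transgene. Both labels carry the same text on doxycycline, which speaks only of inducing the knockout. Mice of both genotypes were 8 weeks old and of mixed sex, and the series' design text gives 3 mice for each genotype. The names of both arrays describe mixtures, so each may hold RNA pooled from several mice, though no label states it. With 1 array per genotype no test between genotypes was possible, no p-value is given, and no difference below has a replicate check.

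In the kidney, tubule epithelium and podocytes secrete vascular endothelial growth factor A, which acts on nearby capillaries. Its receptors VEGFR2 (Kdr) and VEGFR1 (Flt1) are tyrosine kinases of endothelial cells, and VEGFR2 passes on most of the growth signal, while VEGFR1, also made in a soluble form, binds the ligand tightly and limits it. Tie2 (Tek) is the receptor of the angiopoietins, and Tie1 is its partner. VE-cadherin (Cdh5) and PECAM-1 (Pecam1) hold endothelial cells together, endomucin (Emcn) coats their surface, von Willebrand factor (Vwf) is stored and released by them, and Plvap forms the diaphragms of their fenestrae and caveolae. GATA2, the factor deleted here, is itself a known regulator of endothelial genes.

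The 20 probes, each of 60 bases, lie on chromosomes 3, 4, 5, 6, 8, 11 and 17 of the mouse genome in build mm9, by the coordinates of the scanner files. The sequences of 3 endothelial probes are shown because they stand for the range of outcomes near the limit of detection, a junction probe that was seen mainly on the WT array, a receptor probe seen on neither array, and the fainter of the probes for Vwf. They are printed in lower case.

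Pecam1, chromosome 11, between 106542389 and 106544242, minus strand: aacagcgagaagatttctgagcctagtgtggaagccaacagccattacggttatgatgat

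Tie1, chromosome 4, 118144132 to 118144191, minus strand: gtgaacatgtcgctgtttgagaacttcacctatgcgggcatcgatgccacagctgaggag

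Vwf, chromosome 6, 125635858 to 125635917, plus strand: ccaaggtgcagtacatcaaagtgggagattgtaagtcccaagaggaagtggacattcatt

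The Pecam1 probe covers 1854 bases of the genome with its 60 bases, so it crosses at least 1 splice junction of the mRNA, and the other Pecam1 probe, at 106543058 to 106543117, lies inside the stretch between its ends. Both Vwf probes lie near the end of the transcript, with 693 bases between their starts. The Tek probes are far apart, with 132374 bases between their starts, and the one nearer the gene's start was designed on a cDNA clone and not on the RefSeq transcript. Exons and untranslated regions of the other probes were not analysed here.

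The RefSeq promoter table (GRCm38.p6) held windows for 6 of the 10 genes, 7 windows in all. In the 250 bases before the start, read on both strands, the GATA letters AGATAA or TGATAA were present in 1 of the 7 windows, against 16.6% of the 32841 windows in the table. The hypoxia response letters ACGTG or GCGTG were present in 4 of 7, against 38.6% of all windows, and the ETS letters CGGAAG or AGGAAG in 3 of 7, against 39.2%. For Vegfa the hypoxia letters were in the window of its downstream start and not in that of its upstream start. That downstream window lies past the upstream start in the direction of transcription, so its letters may belong to transcribed sequence. The window with the GATA letters belongs to the upstream start of Vegfa, and it is shown because the deleted gene encodes a GATA factor. The capitals mark the match, which begins 182 bases before the start. A match of letters is a description and not a binding site.

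Vegfa promoter, GRCm38.p6, chr17:46032378-46032627, minus strand: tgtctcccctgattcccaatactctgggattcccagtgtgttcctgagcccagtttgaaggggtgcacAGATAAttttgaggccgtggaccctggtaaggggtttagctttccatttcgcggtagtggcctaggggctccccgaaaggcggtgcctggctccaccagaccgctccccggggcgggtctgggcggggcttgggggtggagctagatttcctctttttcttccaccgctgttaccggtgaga

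All values below are the scanner's processed signals in intensity units, or the log2 level, which is log2 of the signal minus log2 of the 75th percentile of its array. The 75th percentile was 250.03 on the CKO array and 314.3 on the WT array, so equal raw signals mean a higher level on the CKO array. Differences are CKO minus WT of the log2 level. The lowest signal that the scanner software called well above background was 11.6 on the CKO array and 12.0 on the WT array, and 62.4% of the spots of the CKO array and 64.1% of those of the WT array reached that call. Errors marked as spot errors are those of the software for the spots of both arrays together and do not cover mice, cell isolation or labelling. Gata2 itself had differences of −0.37 ± 0.20 and −0.32 ± 0.20 (spot error) at its 2 probes, and no source used here says whether these lie in the deleted part, so they do not check the labels. Over the 18793 genes with a difference the median was 0.05. All 10 principal cell genes and all 10 intercalated cell genes listed as markers of collecting duct epithelium were well above background on both arrays.

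Vegfa was bright on both arrays, and the endothelial genes were dim or not detected. Of the 9 endothelial genes, 6 were well above background on both arrays, Cdh5 and Pecam1 on the WT array alone, and Tie1 on neither. By probes, 6 of the 16 endothelial probes were well above background on both arrays, 3 on the WT array alone, 7 on neither and 0 on the CKO array alone. All 4 Vegfa probes were well above background on both. Of the 18974 genes measured on at least 1 array, 395 were measured on the CKO array alone and 895 on the WT array alone. The same shares over all probes are not given here. In RNA from a mixture of cells, fewer endothelial cells and less of these transcripts per cell cannot be told apart.

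**Figure D1:**
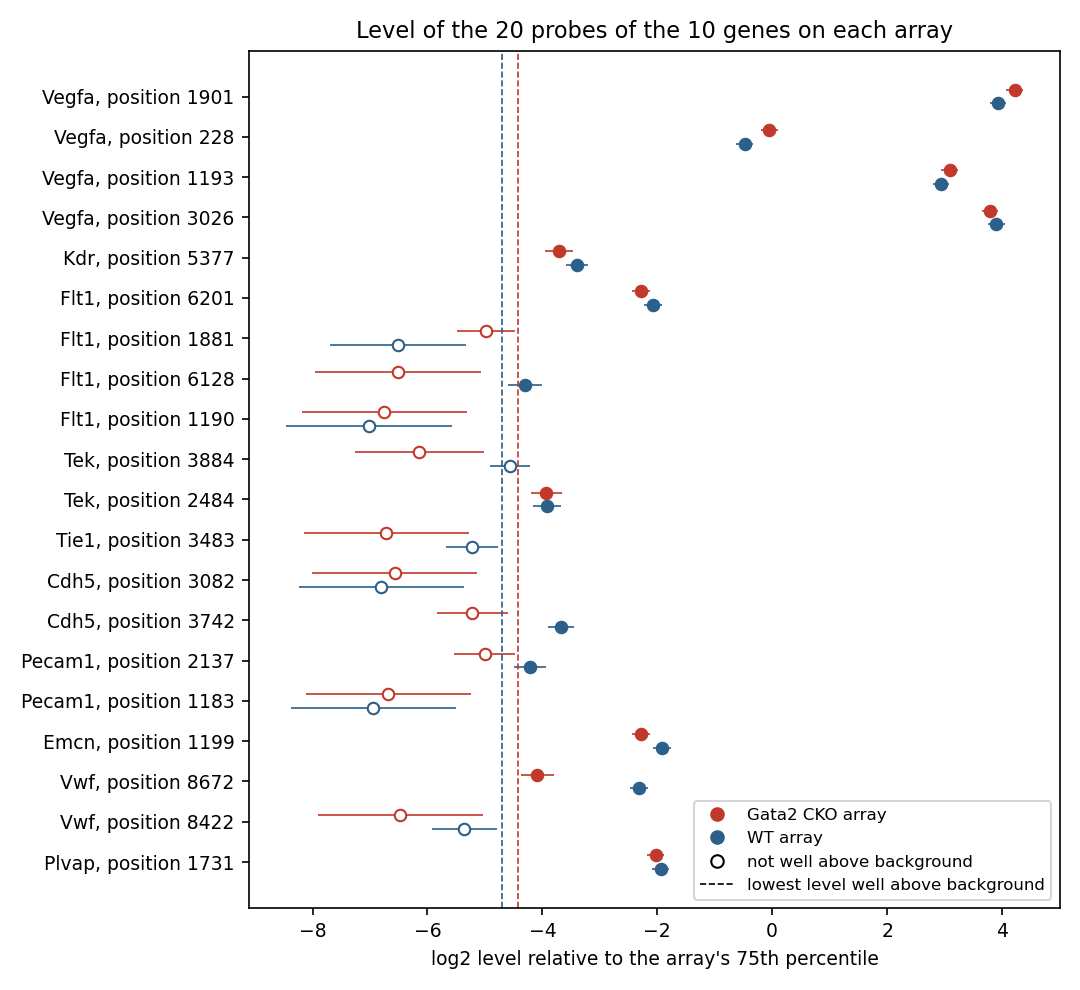
Level of each of the 20 probes, named by gene and transcript position, on the Gata2 CKO array (red) and the WT array (blue), as log2 relative to the array's 75th percentile; horizontal lines are spot errors, open points are not well above background, and dashed lines mark the lowest level well above background. The 4 Vegfa probes lie from −0.48 to 4.22, and the endothelial probes all lie below −1.9, 7 of them with open points on both arrays.

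The ligand Vegfa was slightly higher on the CKO array by 3 of its 4 probes. The probe at transcript position 1901 was printed 10 times, with signals from 4458 to 4940 (median 4650.5, 9 spots, 1 flagged spot left out) on the CKO array, against 4566 to 5137 (median 4786, 10 spots) on the WT array. After scaling the spots of the arrays did not overlap, with mean levels of 4.22 ± 0.04 on the CKO array and 3.93 ± 0.05 on the WT array (SD over spots). The difference was 0.28 ± 0.20 (spot error), a ratio of 1.22, and it was positive at each of the 9 positions compared, from 0.26 to 0.30. These repeated spots share the RNA and the labelling of 1 array, so their agreement says nothing of mice.

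The other Vegfa probes did not all give the same direction. At position 228, the nearest to the start of the transcript, the signal was 242 on the CKO array and 225 on the WT array, a difference of 0.43 ± 0.21. At position 1193 it was 2130.4 on the CKO array and 2409.6 on the WT array, a difference of 0.15 ± 0.20. At position 3026, the farthest along, it was 3468 on the CKO array and 4697 on the WT array, a difference of −0.11 ± 0.20. The differences thus fell in the order of the probes along the transcript only in part, with 0.43, 0.15, 0.28 and −0.11 from first to last. The spread between different probes of 1 gene over all genes was 0.27 (root mean square SD, 5309 genes), and the 4 Vegfa probes differed in direction. Where 1 value stands for the gene below, it is that of its brightest probe, at position 1901. When 8 spike-in control transcripts were set equal, which lowers all differences by 0.55, Vegfa came to −0.26 against a median of −0.50 for all genes.

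Both receptors of Vegfa were dim, and where a probe was well above background on both arrays its difference was no larger than its spot error. Kdr had signals from 13.1 to 28.1 (median 19.0, 10 spots) on the CKO array, against 24.1 to 33.9 (median 31.0, 8 spots, 2 flagged spots left out) on the WT array. The level was −3.71 ± 0.32 on the CKO array and −3.40 ± 0.16 on the WT array (SD over spots), and the spots of the arrays overlapped. The difference of −0.31 ± 0.32 (spot error) was negative at 6 of 8 positions, and it ranged from −1.0 to 0.17 among them.

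Flt1 had 4 probes, of which 1 was well above background on both arrays. That probe, at position 6201, had a signal of 51.4 on the CKO array and 74.7 on the WT array, a difference of −0.21 ± 0.22 (spot error). Its close neighbour at position 6128, with 73 bases between their starts, had 2.74 on the CKO array, which is not well above background, and 15.999 on the WT array. Set against the lowest signal well above background on the CKO array, this probe came out 1.10-fold lower in CKO cells. Bounds of this kind are approximate, since a Kdr spot of 13.1 on that array was not called well above background. That spot had a level of −4.26, above the −4.30 of this Flt1 probe on the WT array. The bound therefore does not fix the direction of this probe. The remaining probes, designed on cDNA clones, had 7.94 and 2.32 on the CKO array and 3.44 and 2.42 on the WT array, all of them not well above background. Flt1 thus gave both a small difference and a bound at neighbouring probes.

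**Figure D2:**
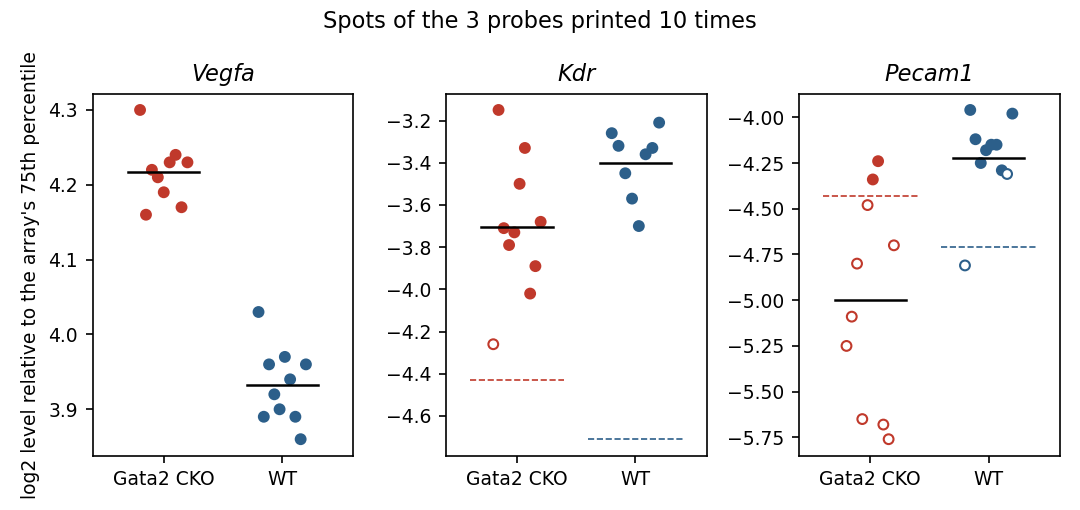
Spots of the Vegfa, Kdr and Pecam1 probes that were printed 10 times, as log2 level relative to the array's 75th percentile, Gata2 CKO left and WT right; each panel has its own axis, bars are means over spots, open points are not well above background and dashed lines mark the lowest level well above background. The Vegfa spots of the CKO array all lie above those of the WT array, with means of 4.22 on the CKO array and 3.93 on the WT array, while those of Kdr and Pecam1 overlap.

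Of the Tie receptors, Tek was at the edge of detection and Tie1 below it. Tek had 16.4 on the CKO array and 20.7 on the WT array at the probe designed on a cDNA clone, a difference of −0.01 ± 0.36 (spot error). At the probe of the RefSeq transcript it had 3.55 on the CKO array and 13.2 on the WT array, neither well above background. Tie1 had 2.38 on the CKO array and 8.41 on the WT array at the probe printed above, again not well above background on either, so no fold is given for it.

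The junction genes Cdh5 and Pecam1 were seen on the WT array alone. Cdh5 had 6.69 on the CKO array and 24.6 on the WT array at position 3742, which puts CKO cells at least 1.70-fold lower, and as measured the difference was −1.55 ± 0.66 (spot error). Its other probe had 2.63 on the CKO array and 2.82 on the WT array, not well above background on either. Pecam1 had signals from 4.602 to 13.3 (median 8.17, 10 spots) on the CKO array, against 11.2 to 20.2 (median 17.5, 10 spots) on the WT array. Of the 10 spots, 2 were well above background on the CKO array and 8 on the WT array, and the spots of the arrays overlapped. By the bound, approximate as for Flt1, Pecam1 came out 1.16-fold lower. Its level on the WT array was −4.22, and Ecscr, a further endothelial gene, was not called on the CKO array at −4.15. The bound therefore does not fix the direction of Pecam1. By the signals as measured the difference was −0.78 ± 0.60 (spot error), negative at 10 of 10 positions. The Pecam1 probe that lies between the ends of the spliced one had 2.44 on the CKO array and 2.55 on the WT array, near the median of the negative controls, 2.53 on the CKO array and 2.67 on the WT array.

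The remaining endothelial genes were well above background on both arrays, and of the 7 members on both arrays only Vwf was at least 2-fold apart. Vwf had 14.7 on the CKO array and 63.1 on the WT array at position 8672, a difference of −1.77 ± 0.32 (spot error), or 29.2% of the WT level. The CKO signal was 1.27 times the lowest signal well above background, so the size of this difference rests on a spot near the limit of detection. The other Vwf probe, printed above, had 2.81 on the CKO array and 7.65 on the WT array, well above background on neither. Emcn had 51.5 on the CKO array and 82.8 on the WT array, a difference of −0.35 ± 0.22. Plvap had 61.1 on the CKO array and 81.8 on the WT array, a difference of −0.09 ± 0.22, smaller than its error.

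Counted by gene, each gene taking its brightest probe well above background on at least 1 array, 1 of the 9 measured members was at least 2-fold lower in CKO cells, against 2.86% of all genes. None was at least 2-fold higher, against 1.50% of all genes. None was so in any of the 11 settings either, but the others have their own shares, of which only some were counted. Of the 5584 genes in the same range of levels as the measured members other than Vegfa, 4.80% were at least 2-fold lower and 3.10% at least 2-fold higher, and their median difference was 0.09. By probes, 1 member probe was at least 2-fold lower, against 2.51% of all probes, and none was at least 2-fold higher, against 1.39%. With no filter on dim probes 3 members were at least 2-fold lower, and the share of all genes past 2-fold was not counted in that setting. Of all 20 probes 13 had a lower level as measured on the CKO array, dim ones included, and the share over all probes was not counted in that way. With probes well above background on neither array left out, 41.7% of all probes with a difference were below 0. In direction, 8 of the 9 measured members were below 0, against 42.4% of all genes and 42.3% of those of like level, with a median of −0.22. Of these 8, Cdh5 and Pecam1 entered only through the WT array and could not have come out higher. Over the 7 genes on both arrays 6 were below 0 with a median of −0.21. With no filter on dim probes 9 of 10 were below 0, with a median of −0.33. The median of all genes was then 0.15, and their share below 0 was not counted.

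The direction of 4 dim members changed with the background correction. Normexp background correction adds an offset of 50. It did not simply shrink the differences of dim members. Vwf moved from −1.77 to −0.39, Emcn from −0.35 to −0.15, Kdr from −0.31 to 0.09 and Flt1 from −0.21 to 0.08. Tek moved from −0.01 to 0.33 and Plvap from −0.09 to 0.12, both farther from 0. Whether the offset itself raised dim probes was not tested, and no median of genes of like level was taken in that setting. With normexp 7 members kept a difference, 2 of them were below 0, and 35.8% of all genes were. No member was then at least 2-fold lower, against 1.11% of all genes, or higher, against 0.354%. Under that setting Kdr was at 0.09, Flt1 at 0.08, Tek at 0.33 and Plvap at 0.12, while Emcn at −0.15 and Vwf at −0.39 were lower, against a median of 0.07 for all genes. Vegfa was at 0.25, and Cdh5 and Pecam1 had no difference because their bounds came to less than 1-fold. With the spike-in controls set equal, 9 of 9 measured members were below 0, against 92.1% of all genes, and 2 were at least 2-fold lower, against 8.71%.

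**Figure D3:**
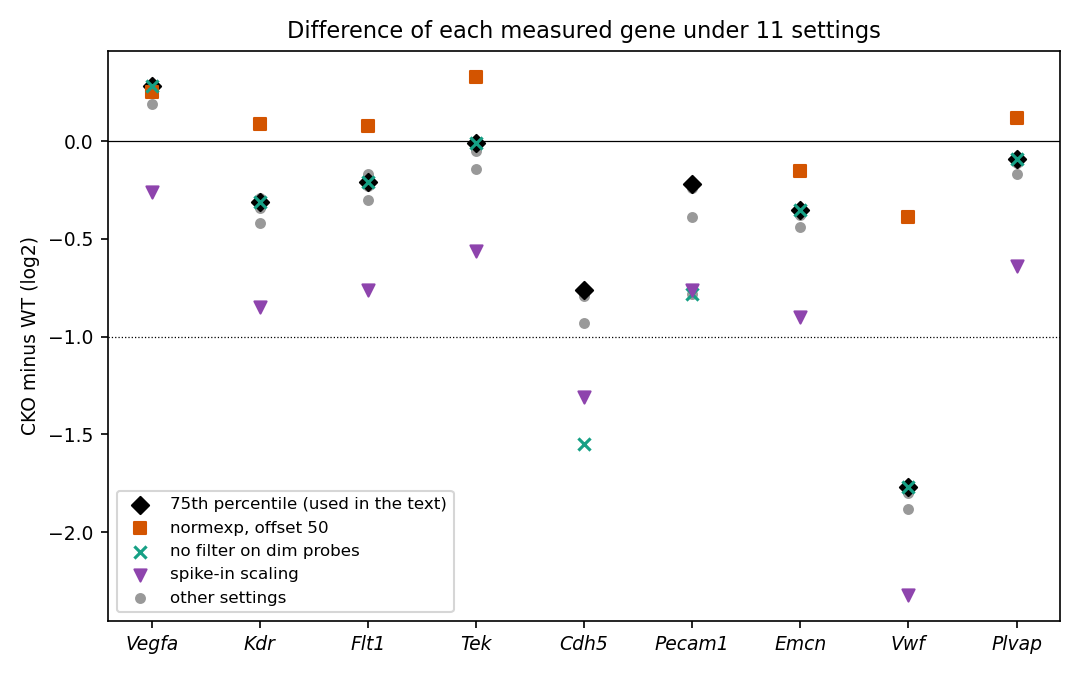
Difference of each of the 9 measured genes, CKO minus WT on the log2 scale, under 11 settings of the processing; the dotted line marks 2-fold lower, and the values of Cdh5 and Pecam1 are bounds, except with no filter and, for Pecam1, where 1 bright spot was enough. Vegfa lies above 0 in all settings but spike-in scaling, at −0.26, and Kdr, Flt1, Tek and Plvap move above 0 with normexp.

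The VEGF family of ligands and receptors, a list that also holds Vegfa, Kdr and Flt1, ranged from −2.19 to 1.46. Of its 10 genes 9 were measured, all on both arrays, with a median of 0.22. Of these 2 were at least 2-fold lower, against 2.86% of all genes, and 1 at least 2-fold higher, against 1.50%. Vegfd, listed as Figf in the files and a ligand of lymphatic vessel growth, had 400.01 on the CKO array and 182 on the WT array, a difference of 1.46 ± 0.21. Vegfc, the main ligand of lymphatic endothelium, had 15.8 on the CKO array and 90.5 on the WT array, a difference of −2.19 ± 0.31. Nrp2, a coreceptor of Vegfc and of semaphorins, had 74.957 on the CKO array and 330.2 on the WT array, a difference of −1.81 ± 0.21. Each of these rests on 1 probe. Nrp1, the relative of Nrp2, was at 0.23 ± 0.21, with 1.27 and 0.58 at its other probes. It is named after its values were seen, because its direction was opposite to that of Nrp2. The receptor Flt4 was not measured on either array. With spike-in scaling the median of this list came to −0.32.

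In the angiopoietin and Tie system 5 of 7 genes were measured, with a median of −0.40, or −0.09 with normexp. All of them were below 0, against 42.4% of all genes, though Tek, which this list also holds, was at −0.01 ± 0.36. Of the 5 measured, 2 were at least 2-fold lower, against 2.86% of all genes. Ptprb, the endothelial phosphatase that holds Tie2 in check, had 62.1 on the CKO array and 218 on the WT array, a difference of −1.48 ± 0.21, and its other probes were well above background on neither array. Svep1, a large matrix protein that binds Tie1, had 46.1 on the CKO array and 151 on the WT array, a difference of −1.38 ± 0.22, with −0.99 at its other probe. The ligands Angpt2 and Angpt1 were at −0.40 ± 0.27 and −0.16 ± 0.24.

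The intracellular steps behind the VEGF receptors, which most cells share, showed small differences in both directions. All 26 genes of that list were measured, with a median of −0.01. Of these 14 were below 0 and 12 above, against 42.4% of all genes below 0. None of the 25 on both arrays was 2-fold apart. The members farthest from 0 were Nfatc1 at −0.39 ± 0.21, Plcg1 at 0.29 ± 0.21 and Rcan1 at −0.28 ± 0.21, though other probes gave 0.81 for Plcg1 and 0.08 for Rcan1, besides the endothelial nitric oxide synthase Nos3, seen on the WT array alone and at least 1.37-fold lower, a bound that leaves its size unknown.

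Hypoxia is a main inducer of Vegfa, and genes of that response showed small differences in both directions. Of the 9 genes of the oxygen sensing pathway 7 were above 0 and 2 below, with a median of 0.11. Of all genes 42.4% were below 0. Egln3, a prolyl hydroxylase that is itself induced by hypoxia, was at 0.42 ± 0.21, Hif1a at 0.29 ± 0.20, Egln2 at 0.18 ± 0.20 and Arnt at −0.26 ± 0.20, with 0.33, −0.07 and 0.08 at its other probes. Of the 15 hypoxia targets 9 were above 0 and 6 below, near the share of all genes, with a median of 0.05, the same as that of all genes. Ndrg1 was at −0.57 ± 0.20, Hk2 at 0.54 ± 0.23, Pdk1 at 0.47 ± 0.20 and Pfkfb3 at −0.44 ± 0.20, with −0.17 and 0.13 at its other probes, and none was 2-fold apart.

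Most other endothelial surface genes were also below 0. Of 27 further surface and junction genes 23 were measured, 7 of them on the WT array alone and 0 on the CKO array alone. Of the 18974 genes measured in all, 895 were on the WT array alone and 395 on the CKO array alone. Of the 21 with a difference 18 were below 0, with a median of −0.59, or −0.14 with normexp, but 5 of these, Jam2, Ecscr, Procr, S1pr1 and Nos3, entered only through the WT array and could not have come out higher. Of the 16 genes on both arrays 13 were below 0, against 42.4% of all genes, with a median of −0.61. Of the 16, 2 were at least 2-fold lower, against 2.86% of all genes. The claudin of the blood vessel wall, Cldn5, had 70.7 on the CKO array and 185 on the WT array, a difference of −1.06 ± 0.21. Mmrn2, a matrix protein of the endothelial surface, had 69.9 on the CKO array and 196 on the WT array, a difference of −1.16 ± 0.21. Cd34 and Icam2, adhesion proteins of the vessel lining, were at −0.99 ± 0.22 and −0.99 ± 0.21. Gpihbp1, the lipase anchor of capillaries, was at 0.04, Ehd3, known from glomerular endothelium, at 0.23 and Acvrl1, an endothelial receptor of BMP ligands, at 0.19, named after their values were seen because they were the 3 above 0.

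Of 19 endothelial transcription factors 16 were measured, with a median of −0.36, or −0.13 with normexp. The 14 on both arrays were all below 0 with a median of −0.41, against 42.4% of all genes below 0. Of the 14, 1 was at least 2-fold lower, against 2.86% of all genes. The others, Erg and Sox18, were seen on the WT array alone and could not have come out higher. Foxc1 had 51.6 on the CKO array and 258 on the WT array, a difference of −1.99 ± 0.22. Its relative Foxc2 was at −0.91 ± 0.31, Tal1, which acts with GATA factors in blood and vessel precursors, at −0.81 ± 0.37, and Nr2f2, the factor of vein identity, at −0.77 ± 0.20 with 421 on the CKO array and 904 on the WT array. Gata2 is a member of this list, and several of its genes are also expressed outside endothelium.

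**Figure D4:**
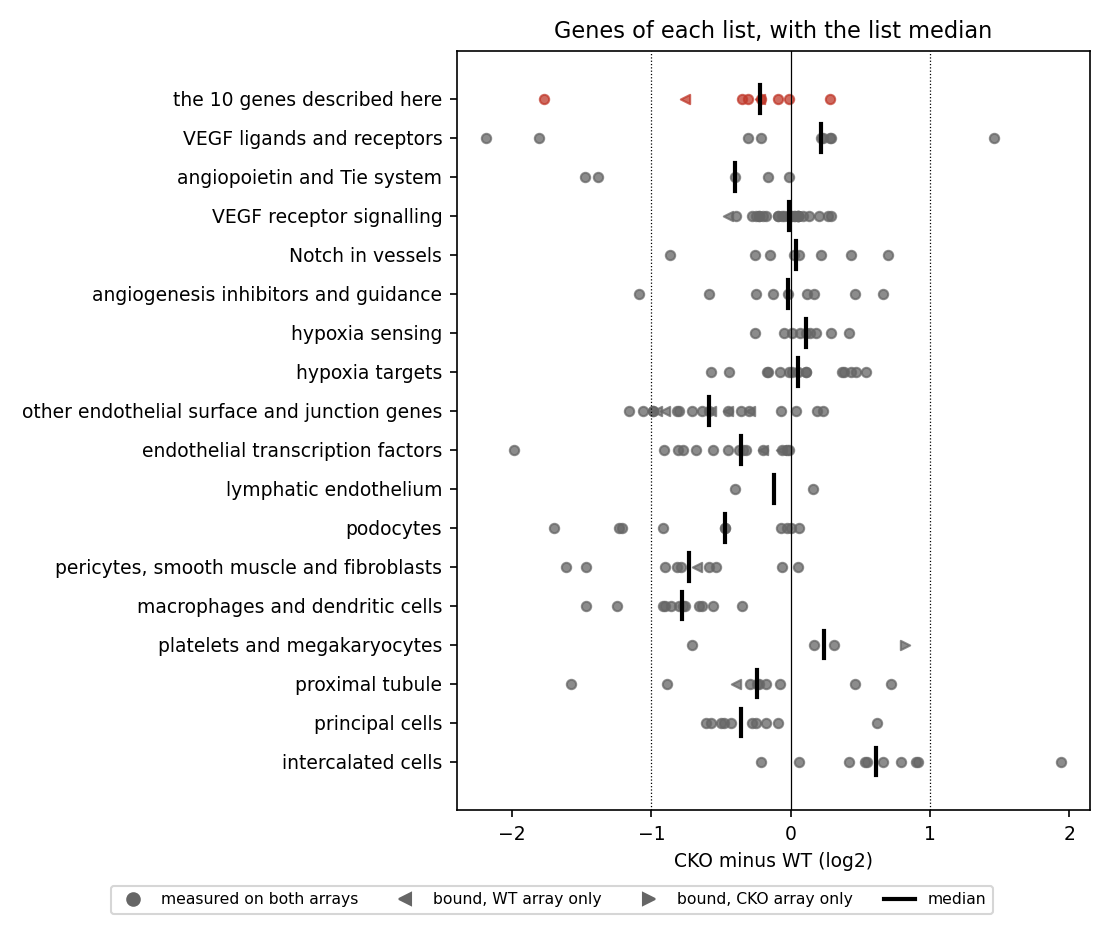
Difference of every measured gene of 18 lists, CKO minus WT on the log2 scale; circles are genes on both arrays, triangles are bounds of genes on 1 array alone, black bars are list medians and dotted lines mark 2-fold. The 9 measured of the 10 genes described here, with a median of −0.22, lie between the further endothelial surface genes at −0.59 and the VEGF ligands and receptors at 0.22.

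Markers of most other cell types outside the collecting duct epithelium were also mostly below 0, against 42.4% of all genes. Their part in the endothelial differences was not tested. All 12 macrophage and dendritic cell genes were below 0 and above background on both arrays, with a median of −0.78, and their summed level, in units of the 75th percentile, was 54.1 on the CKO array and 108 on the WT array. The pericyte, smooth muscle and fibroblast genes had 9 of 10 measured members below 0, of which Rgs5 was seen on the WT array alone and could not have come out higher, and a median of −0.73, or −0.35 with normexp. Their sums were 26.6 on the CKO array and 33.1 on the WT array, and without Acta2 and Tagln, the brightest, 4.43 on the CKO array and 7.22 on the WT array. The brightest Acta2 probe was at 0.05 and another on both arrays at −1.16, and Des and Pdgfra were measured on neither array. Podocyte genes, which matter here because podocytes also make Vegfa, had 9 of 10 below 0, with a median of −0.47, or −0.20 with normexp. The slit diaphragm gene Nphs1 at −1.23, Podxl at −1.21 (0.22 at its other probe) and the transcription factor gene Wt1 at −1.70 were the 3 past 2-fold. Of all genes 2.86% were at least 2-fold lower. Their sums were 46.0 on the CKO array and 46.7 on the WT array, and without Cd2ap and Actn4, which are widely expressed, 2.81 on the CKO array and 4.37 on the WT array. Proximal tubule genes had 8 of 10 below 0, of which Slc13a3 was seen on the WT array alone, a median of −0.24 and sums of 11.9 on the CKO array and 14.1 on the WT array. Platelets also carry Pecam1 and Vwf. Of 8 platelet genes 4 were measured, with a median of 0.24. Itga2b was seen on the CKO array alone, so it could not have come out lower, and was at least 1.77-fold higher. Pf4 was at −0.71 ± 0.20, Itgb3 at 0.31 ± 0.21, with −0.65 at another probe, and Gp1bb at 0.17 ± 0.29. The platelet genes had sums of 1.86 on the CKO array and 2.38 on the WT array, and Ppbp, Gp1ba, Gp9 and Gp6 were measured on neither array.

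Within the collecting duct epithelium, principal cell genes had 9 of 10 below 0, against 42.4% of all genes. Their median was −0.36, with summed levels of 967 on the CKO array and 1158 on the WT array. Intercalated cell genes had 9 of 10 above 0 and 1 below, a median of 0.61 and sums of 519 on the CKO array and 430.4 on the WT array. For the 9 measured of the 10 genes described here the sum was 19.5 on the CKO array and 16.5 on the WT array, nearly all of it Vegfa.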

How the data were processed

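For each genotype 1 deposited file gives the scanner output of a Cy3 array as linear spot intensity, with spot flags as other columns. Per the file headers, the authors extracted them with Agilent Feature Extraction 10.7.3.1, which subtracts background and detrends, and placed the probes on mm9. Both arrays were read in 1 scan. From 50 ng of total RNA the label was made, per the labels' protocols. No source used here names a normalization between arrays.

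Of 43379 spots that are not controls, 73 outlier spots of the CKO array and 66 of the WT array were left out, and 0 were saturated. Spots of a probe were averaged on the log2 scale. A probe counted as well above background on an array when at least 50% of its spots did. Where it did so on 1 array alone, the fold is a bound, taken against the other array's lowest signal of this kind, or the dim probe's own where that was higher. Some spots above that lowest signal were not called, so the bounds are approximate. The 26876 probes with a RefSeq accession in a table of GRCm38.p6 took its symbol. For the other 17 lists the text names up to 4 genes, those farthest from 0, and some are left to counts. Genes said to be named after their values were seen are outside this rule. The members and lists were chosen with earlier results of these data known. Alternatives were other background corrections, normalizations, filters and probe rules. Steps were tested on simulated data, with fold changes set only in genes far above background. The test did not cover fold changes of genes as dim as the endothelial members. The software was limma 3.58.1 (R 4.3.3), and pandas 2.3.3, numpy 2.4.6 and matplotlib 3.10.9 (Python 3.11.15). The number of arrays limits the precision.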

Additional observations from a re-analysis of the deposited data

How the results depend on the processing

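Cyclic loess, quantile normalization, bright-probe median scaling, both other filters, the mean of a gene's probes and keeping flagged spots left the median over the members between −0.39 and −0.21, and a looser rule for repeated spots, chosen after seeing the data, gave −0.31. With normexp it was 0.09, and with spike-in scaling, also chosen after seeing the data, −0.76. The 1 member at least 2-fold lower, Vwf, became 0 with normexp and 2 with spike-in scaling, and with no filter on dim probes there were 3 such members, because it uses signals below the limit of detection. Member probes at least 2-fold lower numbered 0 with normexp, 2 with spike-in scaling and 6 with no filter, against 1. Shares over all probes in these settings, and over all genes with no filter, were not counted. No setting made a member 2-fold higher. Spike-in scaling turned Vegfa to −0.26 and the VEGF ligands and receptors to −0.32, since it lowers all differences by 0.55. It gave 1642 genes at least 2-fold lower and 58 higher in all, and normexp 204 and 65, against 538 and 282. No paired analysis was possible because each genotype has 1 array. Signal over background limits the 9 endothelial genes, and leaving out an array would leave no comparison.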

Other observations

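Genes of Notch signalling, which patterns sprouting vessels, spread to both sides. Of 8 measured genes 5 were above 0 and 3 below, against 42.4% of all genes below 0, with a median of 0.04. The target genes Hey1 and Hes1 moved apart, with 94.1 on the CKO array and 73.0 on the WT array for Hey1, a difference of 0.70 ± 0.21, and 262 on the CKO array and 603 on the WT array for Hes1, a difference of −0.87 ± 0.20. The ligand Dll4, made by tip cells of growing vessels, was at 0.43 ± 0.27 and Jag2 at −0.26 ± 0.33.

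Of the inhibitors and guidance genes of vessel growth 9 were measured, with a median of −0.02. Serpinf1, which encodes the antiangiogenic protein PEDF, had 172 on the CKO array and 459 on the WT array, a difference of −1.09 ± 0.21, and its other probe was detected on the WT array alone. The semaphorins Sema3f and Sema3b were at 0.66 ± 0.21 and 0.46 ± 0.20, and the endothelial receptor Robo4 at −0.59 ± 0.27. Of the lymphatic genes Pdpn was at −0.40 ± 0.36 and Reln at 0.16 ± 0.39, Prox1 was detected on the WT array alone with no bound above 1-fold, and Lyve1 and Flt4 were measured on neither array. With 1 array per genotype none of these differences has a replicate check.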
